A study of Mus musculus with 96 samples.

Results

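The genes described here build and mark motile cilia and the ependyma, the ciliated epithelium that lines the brain ventricles. They were taken by symbol from a list of 40 genes, whatever their values, and 38 of the 40 were found among the 32594 genes of the count tables. The symbols Dnai1 and Dnai2 were not matched, because the tables hold these genes under the older symbols Dnaic1 and Dnaic2, which were counted among the other motile cilia genes. The libraries are bulk RNA-seq of the ipsilateral hippocampus, thalamus and hypothalamus of adult male C57BL/6 mice that were 8 to 10 weeks old. The labels do not say which libraries come from the same mouse, so p-values measure the spread between libraries. Injured mice (TBI) received a controlled cortical impact, in which a piston strikes the cortex through a craniectomy, and sham mice (Sham) had anesthesia and a scalp incision without a craniectomy, so the craniectomy is part of the injury arm. Mice were given candesartan (CD), a blocker of the angiotensin AT1 receptor, at 0.1 mg/kg/day, or its vehicle (VH). In the 3 days post-injury (dpi) cohort the drug was injected at 6, 24 and 48 h, and in the 29 dpi cohort it was injected at 6 h and then delivered by an osmotic pump placed at 24 h. Each region and time point holds 2 sham groups (Sham + VH and Sham + CD) and 2 injured groups (TBI + VH and TBI + CD), with 4 libraries per group and 96 in all.

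A motile cilium beats because dynein motors on its microtubule doublets, the outer and inner arms, slide the doublets against each other. Radial spokes, the central pair and the nexin-dynein regulatory complex set the pattern of the beat. In the brain such cilia stand in tufts on ependymal cells and move cerebrospinal fluid. Choroid plexus epithelium also carries cilia and borders the same ventricles. The transcription factor FOXJ1 switches on many of the genes of the motile axoneme, together with factors of the RFX family. The coregulator MCIDAS and the cyclin-like protein CCNO act earlier, when a precursor makes its many basal bodies. In bulk tissue, fewer ciliated cells and less RNA per cell cannot be told apart.

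Depth was 6663629 to 38589791 counts per library, with a median of 24708356. Marker genes were checked against the labelled regions. The 8 hippocampal marker genes summed to 966 to 1780 CPM (counts scaled to library size) in the 32 hippocampal libraries, and to at most 350 CPM elsewhere. The 8 thalamic markers summed to 1612 to 2957 CPM in the thalamus and to at most 635 CPM elsewhere. The 8 hypothalamic markers, peptide genes such as Oxt and Avp, summed to 785 to 1726 CPM in the hypothalamus, 17.1 to 700 CPM in the thalamus and 1.88 to 107 CPM in the hippocampus. Pmch, the most abundant of the hypothalamic markers, had medians of 377 and 368 CPM in the hypothalamus at 3 and 29 dpi and of 239 and 219 CPM in the thalamus, where its highest value of 397 CPM was above the lowest hypothalamic value of 164 CPM. Some libraries stood apart by choroid plexus RNA. The 30 choroid plexus genes summed to 9969, 7242 and 7966 CPM in Sham + VH replicates 1, 2 and 4 of the hippocampus at 3 dpi and to 4503 CPM in TBI + CD replicate 1. In the other 12 hippocampal libraries of that time point they summed to 259 to 645 CPM. Counts of called members within the hippocampus at 3 dpi are therefore given with and without these 4 libraries. Over both times and all regions the sum was over 1000 CPM in 7 libraries at 3 dpi and 11 at 29 dpi, none of them hypothalamic, and region counts are given with and without them.

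Promoters of the members were read from the RefSeq table for GRCm38.p6, 250 bases before to 50 bases after the annotated start, and 35 of the 38 genes had an entry. Foxj1, Rsph1 and Rsph4a were not among them. The RFX half-site GTTGCC, read on both strands (its complement is GGCAAC), was present in 16 of the 35 genes (45.7%) and in 14.1% of all 27025 genes of the table. The forkhead core TGTTTA, also on both strands, was present in 9 of the 35 (25.7%) and in 15.1% of all genes. The full RFX site, read here as GTTNCC, then 2 bases, then GGNAAC, in that order only, was present in 0 of the 35 and in 0.529% of all genes. The promoters of 5 members are shown, 250 bases up to the start and 5′ to 3′ on the strand of the gene, with RFX half-sites in capitals. Tekt1, Spag16 and Lrrc23 were called lower in the hippocampus of Sham + CD mice at 3 dpi and hold 2 half-sites each. Cfap126 and Ccdc114, called in the same comparison, hold none, and Cfap44 and Dnah10, which were not called, hold 2 each in the full window. Ccdc153 had the widest spread between hypothalamic libraries at 3 dpi and holds 1. Rsph9 had the narrowest spread and holds none.
Tekt1 (minus strand, chr11:72361883-72362132): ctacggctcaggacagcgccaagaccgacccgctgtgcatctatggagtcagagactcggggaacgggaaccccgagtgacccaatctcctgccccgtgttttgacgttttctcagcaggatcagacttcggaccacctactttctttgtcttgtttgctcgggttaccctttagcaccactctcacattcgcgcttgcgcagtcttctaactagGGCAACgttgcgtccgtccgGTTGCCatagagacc
Spag16 (plus strand, chr1:69826720-69826969): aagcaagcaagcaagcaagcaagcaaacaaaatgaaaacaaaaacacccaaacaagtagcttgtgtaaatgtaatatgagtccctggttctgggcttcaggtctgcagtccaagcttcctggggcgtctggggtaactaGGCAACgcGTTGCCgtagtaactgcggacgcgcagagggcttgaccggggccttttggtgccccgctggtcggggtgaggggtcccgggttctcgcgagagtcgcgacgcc
Lrrc23 (minus strand, chr6:124779728-124779977): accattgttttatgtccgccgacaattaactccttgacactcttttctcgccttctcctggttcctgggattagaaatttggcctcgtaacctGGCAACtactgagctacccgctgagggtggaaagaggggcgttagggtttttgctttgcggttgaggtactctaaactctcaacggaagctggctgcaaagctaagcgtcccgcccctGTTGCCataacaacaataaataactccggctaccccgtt
Ccdc153 (plus strand, chr9:44240427-44240676): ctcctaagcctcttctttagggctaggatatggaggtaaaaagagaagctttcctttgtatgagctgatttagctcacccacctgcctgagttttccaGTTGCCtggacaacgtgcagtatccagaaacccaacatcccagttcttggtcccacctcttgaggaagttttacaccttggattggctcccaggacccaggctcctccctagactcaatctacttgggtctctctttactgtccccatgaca
Rsph9 (minus strand, chr17:46144201-46144450): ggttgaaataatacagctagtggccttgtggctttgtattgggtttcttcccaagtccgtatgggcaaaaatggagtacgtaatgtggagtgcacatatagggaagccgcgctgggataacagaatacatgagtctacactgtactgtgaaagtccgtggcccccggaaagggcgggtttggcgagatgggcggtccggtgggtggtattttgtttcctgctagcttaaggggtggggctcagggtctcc
In Tekt1 the half-sites begin 35 and 15 bases before the start, in Spag16 111 and 103 bases before it, in Lrrc23 157 and 39 bases, and in Ccdc153 152 bases. A second annotated start of Tekt1 had no half-site. A match is a description of the letters and not a measured binding site.

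Levels were first compared between regions. Over the 32 libraries of each region, the 38 members summed to a median of 274 CPM in the hippocampus, 359 CPM in the thalamus and 557 CPM in the hypothalamus. For 34 of the 38 members the hypothalamus had the highest median level. The exceptions were Ccno, Dnah9 and Mcidas, which were highest in the hippocampus, and Tmem212, which was highest in the thalamus. Levels between genes were set side by side per kb of exon, with exon lengths from GENCODE vM21. On that scale the members with the highest mean over all 96 libraries were Foxj1 at 9.31 CPM per kb, Rsph9, a radial spoke head protein, at 9.16 CPM per kb and Rsph1, also of the spoke head, at 7.63 CPM per kb. The lowest was Dnah12, an inner arm dynein, at 0.0193 CPM per kb. Dnah1, an inner arm dynein at 3.18 CPM per kb, was 14th in that order, although it had the highest mean CPM of its role.

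**Figure D1:**
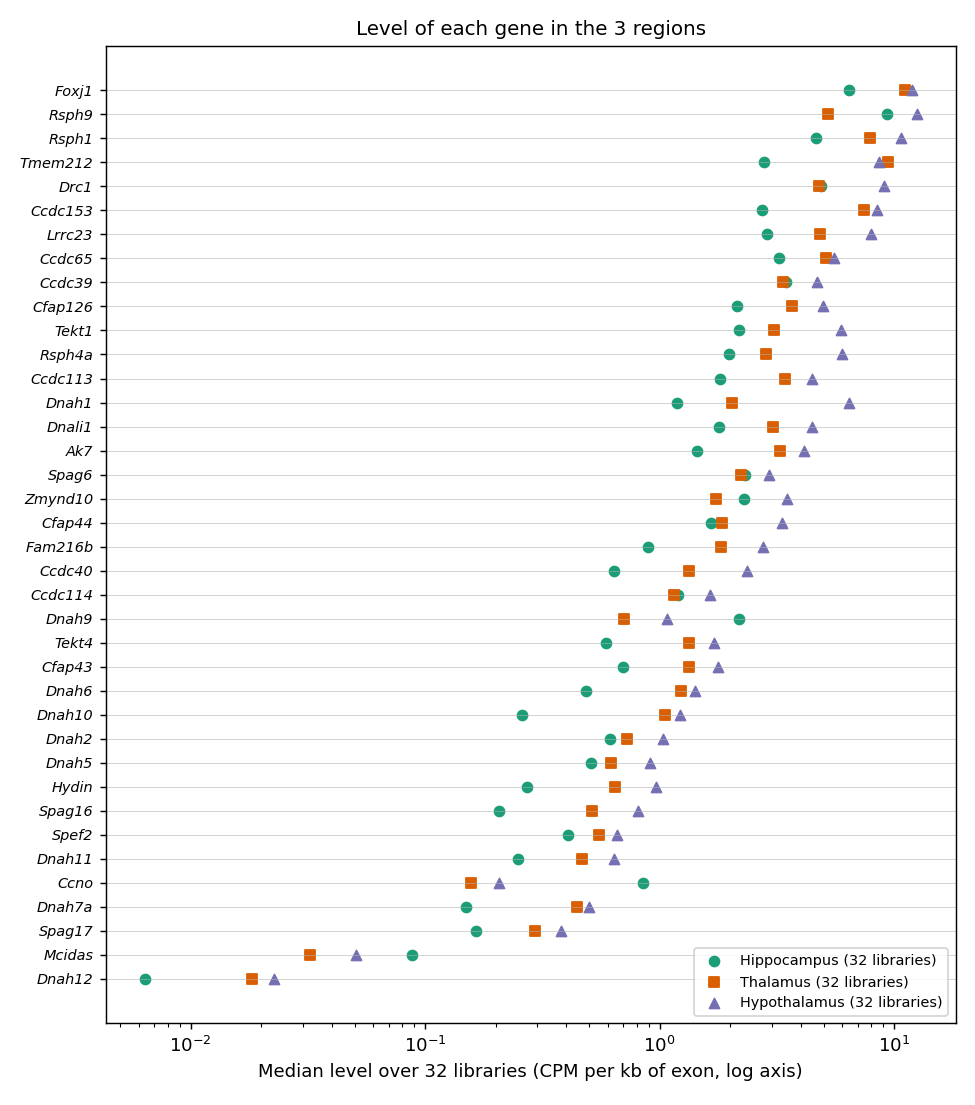
Median level of each of the 38 genes over the 32 libraries of each region, in CPM per kb of exon on a log axis, with genes ordered by their mean over all libraries. Hypothalamic medians lie to the right for most genes, and Ccno, Dnah9 and Mcidas have their highest median in the hippocampus.

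Regions were compared in the Sham + VH libraries of each time point, which rest on 4 libraries per region. A gene was called when edgeR's quasi-likelihood test gave a false discovery rate (FDR) under 0.05 and the log2 fold change exceeded 0.32 in size. At 3 dpi edgeR called 8 of 37 tested members higher in the hypothalamus than in the hippocampus, where 23.5% of all tested genes were called higher, and 2 lower, where 23.2% were called lower. At 29 dpi 14 of 38 were called higher, against 22.8% of all genes, and 2 lower, against 22.2%. The direction of the whole list was less even: at 29 dpi 35 of 38 members had a positive log2 fold change, with a median of 0.92, while the median over all genes was 0.00. Against the thalamus, 3 members were called higher in the hypothalamus at 3 dpi (13.9% of all genes) and 7 at 29 dpi (17.4%), and edgeR and DESeq2 called 0 lower at either time (14.7% and 15.6% of all genes were called lower). Between thalamus and hippocampus, 6 members were higher in the thalamus at 3 dpi (21.5% of all genes) and 3 lower (19.4%), and at 29 dpi 7 were higher (19.4%) and 4 lower (19.9%). The shares of members called at 3 dpi lay near or under those of all genes.

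The region counts depended on the libraries in the fit. With only the libraries compared, every region count at 29 dpi rose, and so did that of thalamus against hippocampus at 3 dpi. Hypothalamus against thalamus gave 3 to 6 members at 29 dpi when 1 library was left out, and 3 or 4 in 10 of the 12 such fits. At 3 dpi it gave 8 without hypothalamus replicate 1 and 7 without hypothalamus replicate 2. Hypothalamus against hippocampus gave 16 at 3 dpi without hypothalamus replicate 1 and 9 at 29 dpi without hippocampus replicate 3. Shares of all genes in these fits are not given here, so the counts cannot be set against them. Of the 4 hippocampal Sham + VH libraries at 3 dpi 3 were rich in choroid plexus RNA. Without all choroid-rich libraries, an alternative added after seeing the data, Sham + VH at 3 dpi kept 1 hippocampal, 2 thalamic and 4 hypothalamic libraries, and the single hippocampal library is assumed to vary like the other groups. Hypothalamus against hippocampus then gave 3 of 37 members higher (18% of all genes) and 2 lower (19.3%). Hypothalamus against thalamus gave 2 higher (10.7%), and thalamus against hippocampus gave 2 higher (15.4%) and 1 lower (15.9%). At 29 dpi 2 hippocampal and 2 thalamic libraries were left. Hypothalamus against hippocampus then gave 17 of 38 members higher (20.3% of all genes) and 1 lower (21.1%). Hypothalamus against thalamus gave 4 higher (13.1%), and thalamus against hippocampus gave 4 higher (18.1%) and 2 lower (17.3%). Of these shares, the 17 of 38 lay above that of all genes, and the others lay under theirs.

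Dnah1 was higher in the hypothalamus than in the other regions. In Sham + VH at 3 dpi it was at 15.9, 16.6, 16.7 and 17.7 CPM in the hippocampus and at 56.2, 69.2, 105 and 106 CPM in the hypothalamus, so the groups did not overlap. The log2 fold change was 2.34 (SE 0.17, edgeR FDR 1.11e-15), and at 29 dpi it was 2.66 (SE 0.24, edgeR FDR 9.52e-13). Exons of Dnah1 overlap Gm35823 on the opposite strand, and whether the authors counted by strand is not given in the sources used here. Against the thalamus Dnah1 was higher by 1.41 at 3 dpi (SE 0.16, edgeR FDR 1.92e-09). Without the choroid-rich libraries its log2 fold change at 3 dpi was 2.33 against the hippocampus (edgeR FDR 1.41e-07) and 1.24 against the thalamus (edgeR FDR 2.03e-05).

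The reverse order was seen for Ccno and Dnah9. Ccno, the basal body regulator, was at 2.16 ± 0.33 CPM (SD, n = 4) in the hippocampus of Sham + VH mice at 3 dpi and at 0.469 ± 0.0268 CPM in the hypothalamus, a log2 fold change of -2.19 (SE 0.28, edgeR FDR 5.97e-09). Its level in the thalamus was 0.378 ± 0.167 CPM, and thalamus and hypothalamus overlapped. Between thalamus and hippocampus the log2 fold change of Ccno was -2.50 (edgeR FDR 1.2e-09). Dnah9, an outer arm dynein, was at 36.5 ± 4.38 CPM in the hippocampus and 13.6 ± 11.1 CPM in the hypothalamus (log2 fold change -1.40, SE 0.38, edgeR FDR 0.00157). Without the choroid-rich libraries hypothalamus against hippocampus at 3 dpi gave -1.89 for Ccno (edgeR FDR 0.000277) and -1.47 for Dnah9 (edgeR FDR 0.0413). At 29 dpi Dnah9 was still lower in the hypothalamus (log2 fold change -0.81), with an edgeR FDR just under the threshold of 0.05, and lower in the thalamus (log2 fold change -1.15, edgeR FDR 0.00722). Mcidas, the early regulator, was near its limit of detection: its highest value in any of the 96 libraries was 0.553 CPM, and it had 0 counts in 2 hippocampal, 8 thalamic and 2 hypothalamic libraries. Foxj1 was at 21.6 ± 1.89 CPM in the hippocampus, 28.6 ± 4.82 CPM in the thalamus and 22.2 ± 15.4 CPM in the hypothalamus at 3 dpi, with overlap between all 3 regions. In Sham + VH at 29 dpi Foxj1 was at 11.5 to 25 CPM in the hippocampus, 26.7 to 38 CPM in the thalamus and 29.2 to 42.6 CPM in the hypothalamus. Hippocampus and hypothalamus did not overlap then (log2 fold change 1.03, SE 0.42, edgeR FDR 0.0337), and without the choroid-rich libraries the log2 fold change was 1.56 (edgeR FDR 0.0296).

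The groups were then compared within each region and time point. The hippocampus at 3 dpi was the only one of the 6 sets in which members were called. In Sham + VH mice the 38 members summed to 309, 318, 333 and 384 CPM. They summed to 232, 296, 239 and 297 CPM in TBI + VH, to 225, 271, 263 and 200 CPM in Sham + CD, and to 335, 223, 188 and 204 CPM in TBI + CD. All 4 Sham + VH libraries therefore lay above all TBI + VH and all Sham + CD libraries, and TBI + CD replicate 1 lay among the Sham + VH values.

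**Figure D2:**
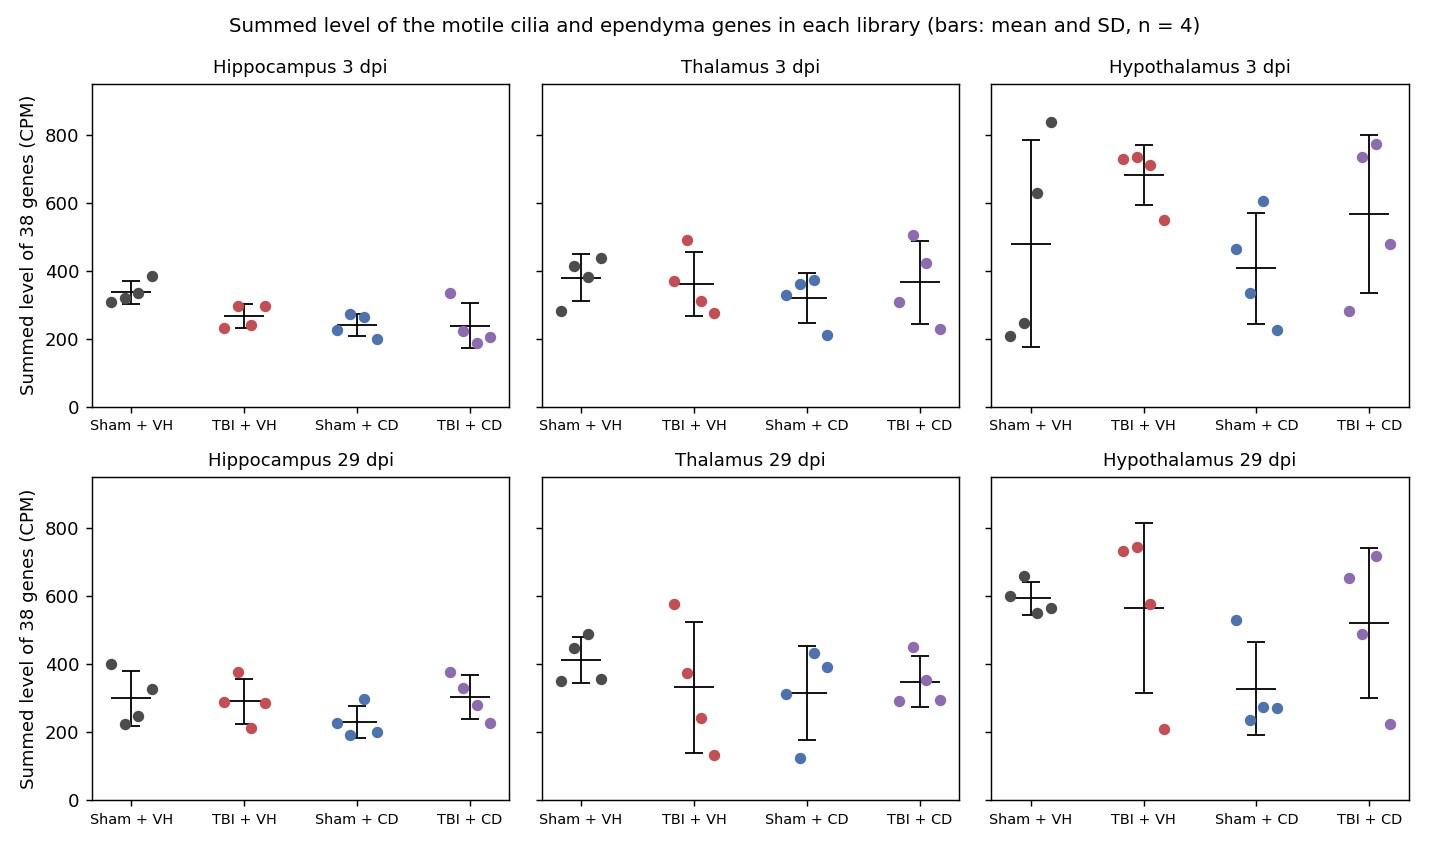
Summed level of the 38 genes in CPM in each library of the 4 groups, for each region and time point, with the mean and SD of each group as bars (n = 4). Sham + VH lies above Sham + CD without overlap in the hippocampus at 3 dpi, and single hypothalamic libraries lie as low as 207 CPM and as high as 836 CPM.

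Candesartan in sham mice gave the lowest median of the 6 comparisons in this region and time point. The comparisons with Sham + VH share those 4 libraries. In Sham + CD against Sham + VH, 7 of 36 tested members were lower and 0 higher, and 1.41% of all 16756 tested genes were called lower. The count was 0 when any Sham + CD library or Sham + VH replicate 1, 2 or 4 was left out, and 14 without TBI + CD replicate 1 (2.01% of all genes). Shares of all genes for the counts of 0 are not given here, so these do not tell whether other genes lost their calls too. With only the libraries compared the count was higher. The 36 members had a median log2 fold change of -0.72, against -0.00 for all genes, and 33 of them were below 0. An unadjusted edgeR p under 0.05 was reached by 20 members and by 2511 of all 16756 tested genes. The 4 Sham + CD libraries lay under all 4 Sham + VH libraries for 16 of 36 members, and for 4.61% of all genes. The 7 were Tekt1, Rsph1, Spag16, Cfap126, Ccdc114, Foxj1 and Lrrc23.

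Of the 4 radial spoke genes 2 fell, and all 4 had an unadjusted p under 0.05. Roles were not tested against each other. Rsph1 was at 9.17, 7.41, 9.15 and 10.6 CPM in Sham + VH and at 4, 5.1, 4.87 and 2.46 CPM in Sham + CD (log2 fold change -1.16, SE 0.23, edgeR FDR 0.0243). Every Sham + CD library was below every Sham + VH library. Lrrc23, a spoke component, had a log2 fold change of -1.41 (SE 0.34, edgeR FDR 0.0421). Rsph9 was at 16.2 to 22 CPM in Sham + VH and 13.4 to 17.2 CPM in Sham + CD, with overlap (log2 fold change -0.30, edgeR FDR 0.194).

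Among the axoneme and basal body genes 2 of 6 fell, with a median log2 fold change of -1.01. Tekt1, a tektin of the doublet wall, was at 6.05, 7.14, 5.04 and 7.86 CPM in Sham + VH and at 2.05, 3.07, 3.49 and 2.32 CPM in Sham + CD (log2 fold change -1.27, SE 0.25, edgeR FDR 0.024). Cfap126, which helps place basal bodies, was at 5.96, 5.99, 5.96 and 7.16 CPM and at 2.2, 2.77, 2.43 and 1.59 CPM (log2 fold change -1.49, SE 0.34, edgeR FDR 0.034). Neither gene had overlapping groups. Cfap43, an axonemal protein, was at 8.03 to 9.91 CPM and 2.5 to 4.84 CPM, which did not overlap either, but it missed the threshold (log2 fold change -1.17, edgeR FDR 0.0902).

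Of the 5 central pair genes, 1 fell. Spag16 was at 5.07, 4.04, 2.76 and 5.61 CPM in Sham + VH and at 0.976, 1.17, 1.11 and 0.683 CPM in Sham + CD. Its log2 fold change of -2.16 (SE 0.48, edgeR FDR 0.0333) was the lowest of the 36 members. The other called members were Foxj1 and Ccdc114. Foxj1 was at 20.2, 20, 22.3 and 23.9 CPM in Sham + VH and at 9.76, 14.6, 11.9 and 7.06 CPM in Sham + CD (log2 fold change -1.01, SE 0.24, edgeR FDR 0.0375). Ccdc114, which docks the outer arm to the doublet, was at 10.2, 9.76, 6 and 10.7 CPM and at 6.29, 6.27, 5.03 and 4.33 CPM, so replicate 3 of Sham + VH lay within the Sham + CD range (log2 fold change -0.75, SE 0.17, edgeR FDR 0.0343).

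The dynein motors were not called, but several had groups that did not overlap. Dnah6, an inner arm dynein, was at 10.5, 12.5, 11.4 and 16.5 CPM in Sham + VH and at 4.05, 6.09, 6.78 and 2.46 CPM in Sham + CD (log2 fold change -1.41, edgeR FDR 0.126). Dnah11, an outer arm dynein, was at 5.08 to 8.71 CPM and 1.28 to 3.67 CPM (log2 fold change -1.54, edgeR FDR 0.112). The light chain gene Dnali1 (log2 fold change -1.17, edgeR FDR 0.0723) and the motor gene Dnah2 (-0.38, edgeR FDR 0.249) did not overlap either. Among the inner arm genes 0 of 6 were called and 3 had an unadjusted p under 0.05, with a median log2 fold change of -0.39. Dnah1 was at 15.9 to 17.7 CPM and 12.6 to 17.3 CPM (log2 fold change -0.11), and Dnah9 at 30.2 to 40.4 CPM and 32.7 to 46.1 CPM (log2 fold change 0.07, edgeR FDR 0.878). Ccno was at 1.75 to 2.55 CPM and 1.48 to 3.27 CPM (log2 fold change 0.23). The assembly factor Zmynd10 was at 5.1 to 6.27 CPM and 3.28 to 5.5 CPM (log2 fold change -0.32, edgeR FDR 0.373). None of the 6 ruler and nexin-dynein genes was called. Of these, Ccdc113, Ccdc65 and Drc1 were lower in Sham + CD without overlap, and Ccdc39, one of the rulers that space the arms, had a log2 fold change of -0.16. The ependymal marker Tmem212 spread widely, from 1.56 to 4.99 CPM in Sham + VH and 0.455 to 2.94 CPM in Sham + CD (log2 fold change -0.85, edgeR FDR 0.517).

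**Figure D3:**
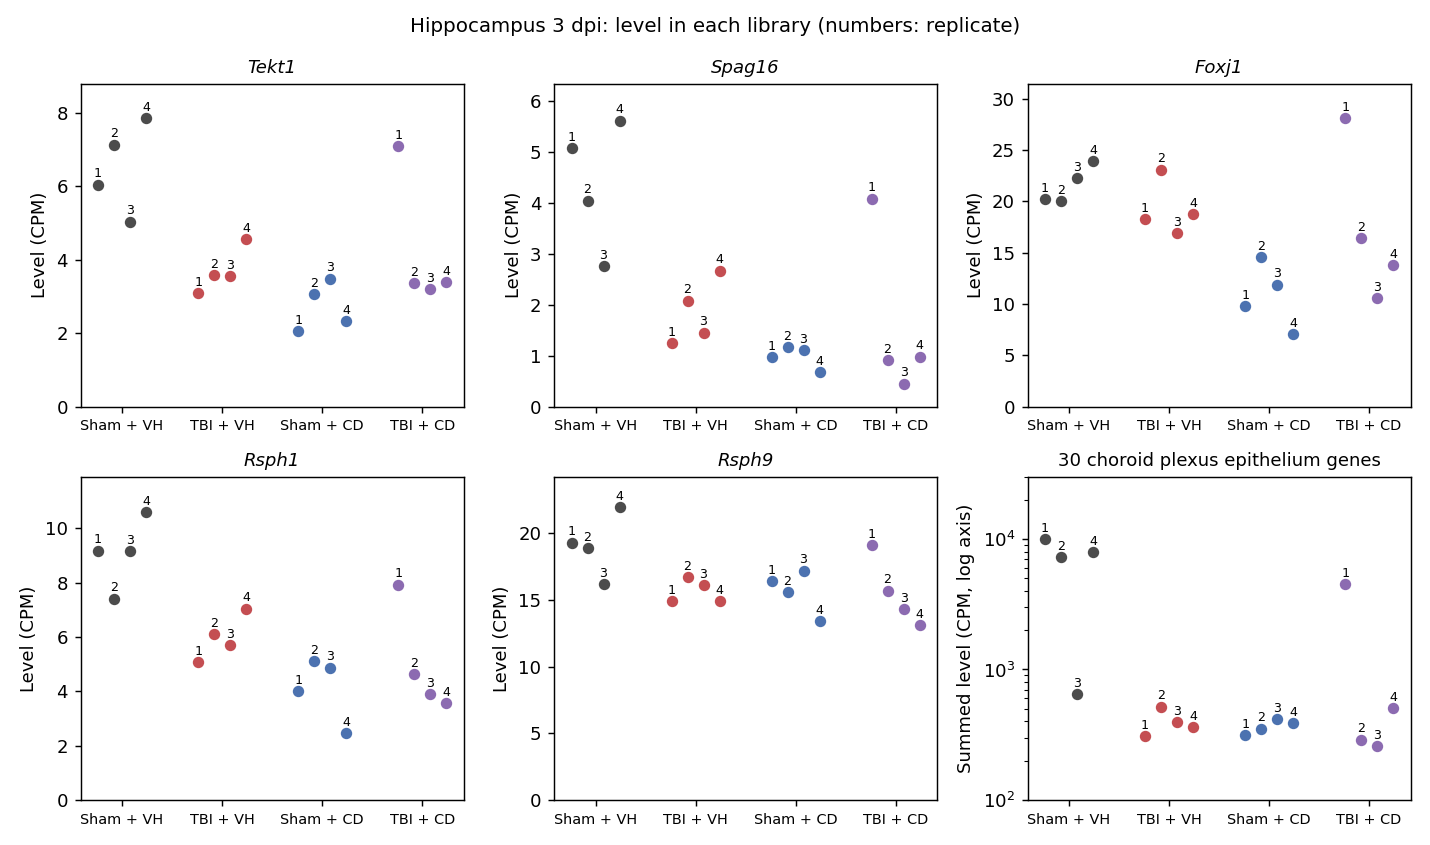
Level in CPM in each hippocampal library at 3 dpi for Tekt1, Spag16, Foxj1, Rsph1 and Rsph9, and the summed level of 30 choroid plexus epithelium genes on a log axis. Numbers beside the points are replicates. Sham + VH replicate 3 is high for Foxj1 and Rsph1. For the choroid plexus genes it is the lowest of its group but above all Sham + CD libraries.

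Choroid plexus RNA moved with this comparison. Of the 30 choroid plexus genes, 28 were called lower in Sham + CD, with a median log2 fold change of -3.81. Ttr, the transthyretin gene of that epithelium, was at 6487, 4114, 164 and 4326 CPM in Sham + VH and at 37.7, 39.2, 85.4 and 65.7 CPM in Sham + CD. Sham + VH replicate 3 held the least choroid plexus RNA of its group, but its sum of 645 CPM was above the 312, 352, 418 and 390 CPM of Sham + CD. In that library 25 of the 38 members were above all 4 Sham + CD libraries and 0 were below all of them. The share over all genes was not counted, so these 2 counts cannot be read as a result about the members. With the mean log2 level of the choroid plexus list as a covariate, edgeR called 0 members and 0% of all genes lower. Without the 4 choroid-rich libraries, an alternative added after seeing the data that leaves Sham + VH with replicate 3 alone, edgeR also called 0 members, and 1 of 17383 genes (0.00575%). In these fits almost no gene was called, so the counts of 0 say little about the members. In the latter fit the members had a median log2 fold change of -0.80. That single library is assumed to vary like the other groups. Of the 7 called members, Ccdc114 then had a log2 fold change of -0.13, against -0.75 with all libraries. The other 6 were at -1.41 for Cfap126, -1.05 for Foxj1, -0.91 for Lrrc23, -1.16 for Rsph1, -1.49 for Spag16 and -0.89 for Tekt1. The part of choroid plexus tissue in the result was not tested beyond these values.

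Lists written beside the members were read in the fit of all 16 libraries. There 2511 of all 16756 tested genes had an unadjusted edgeR p under 0.05. Of 74 tested genes of other motile cilia components, 7 were lower and 0 higher, with a median log2 fold change of -0.53. Of 12 ependymal genes outside the cilium, 3 were lower and 0 higher. Of 38 genes of the primary cilium and intraflagellar transport, the machinery that nonmotile cilia of neurons also use, 0 were called, 4 had an unadjusted p under 0.05 and the median was -0.02. The tanycyte list, 12 genes of which 9 were tested, had 0 calls and a median of -0.06, but it does not read tanycytes here. It summed to 441 to 599 CPM in the hippocampus at 3 dpi and to 85.7 to 325 CPM in the hypothalamus, and its gene Crym had medians of 230 CPM and 4.2 CPM. Of 15 genes of meninges and fibroblasts 0 were called, 2 had an unadjusted p under 0.05 and the median was -0.20, while their summed level was 390, 330, 144 and 480 CPM in Sham + VH and 212, 185, 171 and 115 CPM in Sham + CD. Of 10 genes of the lateral ventricle wall and striatum 0 were called, 1 had an unadjusted p under 0.05 and the median was -0.08. Their summed level was 200, 196, 170 and 214 CPM in Sham + VH and 158, 163, 158 and 157 CPM in Sham + CD, which did not overlap. Within it Ppp1r1b was at 93.2, 92.2, 51.2 and 94.9 CPM and at 44.6, 49.9, 45.4 and 44.3 CPM. Its genes Penk and Rgs9 overlapped between the groups. In the meningeal list Igf2 was at 250, 200, 40.9 and 275 CPM and at 62.2, 48.8, 36.7 and 43.1 CPM, while Dcn and Col1a2 overlapped. Both sums thus leaned on single genes that were highest in the choroid-rich libraries. The part of these tissues in the result was not tested. DESeq2 called 13 of the members, all lower, and 1.75% of all 23676 genes lower.

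Injury was compared in vehicle-treated mice. In TBI + VH against Sham + VH, 2 of 36 members were lower and 0 higher, and 1.72% of all genes were called lower. This count ran from 0, when TBI + VH replicate 2 was left out, to 9, when TBI + CD replicate 1 was, with 2.08% of all genes called lower in the latter. It was 10 with only the libraries compared (1.66%) and 4 by DESeq2 (1.5%). The median log2 fold change of the members was -0.29, and 31 of 36 were below 0. The groups did not overlap, with TBI + VH lower, for 10 of 36 members and for 4.99% of all genes. Tekt1 was below all 4 Sham + VH libraries in the injured mice, at 3.1, 3.58, 3.56 and 4.57 CPM (log2 fold change -0.78, SE 0.24, edgeR FDR 0.0358). Ccdc39 was at 29.6, 25.8, 26.3 and 29.2 CPM in Sham + VH and at 20.1, 18.8, 22.4 and 22.6 CPM after injury (log2 fold change -0.37, SE 0.08, edgeR FDR 0.00567). Exons of Ccdc39 overlap Ttc14 on the opposite strand, whose median level in the hippocampus was 187 CPM, so without strand their reads cannot be told apart. Foxj1 was at 16.9 to 23.1 CPM, within the Sham + VH range for 1 of 4 libraries (log2 fold change -0.14, edgeR FDR 0.77). Of the choroid plexus genes 29 of 30 were called lower. With the choroid plexus covariate 0 members were called, with 0.113% of all genes called lower. Without the choroid-rich libraries 0 were called, with 0.15% of all genes called lower. In the latter case 2 had an unadjusted p under 0.05, 33 of 36 were below 0 and the median was -0.25, close to the -0.29 with all libraries. Ccdc39 was then at -0.28 and Tekt1 at -0.40.

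Injury with candesartan was compared with the same controls. In TBI + CD against Sham + VH, 8 of 36 members were lower and 0 higher, and 1.86% of all genes were called lower. The count was 2 without TBI + CD replicate 3, 4 with only the libraries compared (0.996% of all genes) and 12 by DESeq2 (1.47%). The median log2 fold change was -0.51, and 34 of 36 were below 0. The groups did not overlap, with TBI + CD lower, for 5 of 36 members and for 6.46% of all genes. Of the 4 radial spoke genes, 3 were lower. Rsph4a, of the spoke head, was at 8.79, 8.78, 9.51 and 13.2 CPM in Sham + VH and at 7.39, 5.66, 3.92 and 4.67 CPM in TBI + CD (log2 fold change -0.87, SE 0.21, edgeR FDR 0.00833). Rsph1 was at 7.92, 4.62, 3.88 and 3.56 CPM in TBI + CD (log2 fold change -0.84, SE 0.23, edgeR FDR 0.0163), and its replicate 1 lay within the Sham + VH range. Cfap43 was at 7.63, 2.71, 1.58 and 2.38 CPM in TBI + CD, all below Sham + VH (log2 fold change -1.25, SE 0.33, edgeR FDR 0.0151). Ccdc39 was at 20.5, 19.6, 20 and 21.2 CPM (log2 fold change -0.41, SE 0.08, edgeR FDR 0.00196), with the same overlap with Ttc14. The other 4 were Ccdc113 (log2 fold change -1.04), Lrrc23 (-0.99), Spag16 (-1.45) and Spag6 (-0.50), and reads of Spag6 can be shared with its close copy Spag6l.

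TBI + CD replicate 1, which was rich in choroid plexus RNA, held the highest value of its group for 32 of the 38 members. Without it the count of members lower in TBI + CD than in Sham + VH rose to 24, and 2.98% of all genes were called lower. Without all 4 choroid-rich libraries it was 9, which were Ak7, Ccdc153, Cfap43, Dnah10, Dnah6, Hydin, Rsph1, Spag16 and Tmem212, with 1.06% of all genes called lower and a median over the 36 tested members of -0.78. These 9 calls rest on Sham + VH replicate 3 alone, assumed to vary like the other groups. That library was the highest of Sham + VH for Ak7 (10.2 CPM, the others at 5.12 to 9.25), Ccdc153 (13.3 CPM, the others at 3.51 to 7.63), Dnah10 (7.53 CPM, the others at 2.2 to 6) and Tmem212 (4.99 CPM, the others at 1.56 to 3.75). Of the 8 members called with all libraries, Cfap43 (-1.82), Rsph1 (-1.14) and Spag16 (-1.78) were called. The other 5, at -0.89 for Ccdc113, -0.33 for Ccdc39, -0.98 for Lrrc23, -0.96 for Rsph4a and -0.24 for Spag6, were not. With the choroid plexus covariate it was 0, with 0.752% of all genes called lower. Other motile cilia genes were lower for 14 of 74 and higher for 0, and primary cilium genes were called for 0 of 38. Of these 38 genes 7 had an unadjusted p under 0.05. In the fit of all libraries 4960 of all 16756 tested genes had such a p by edgeR.

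**Figure D4:**
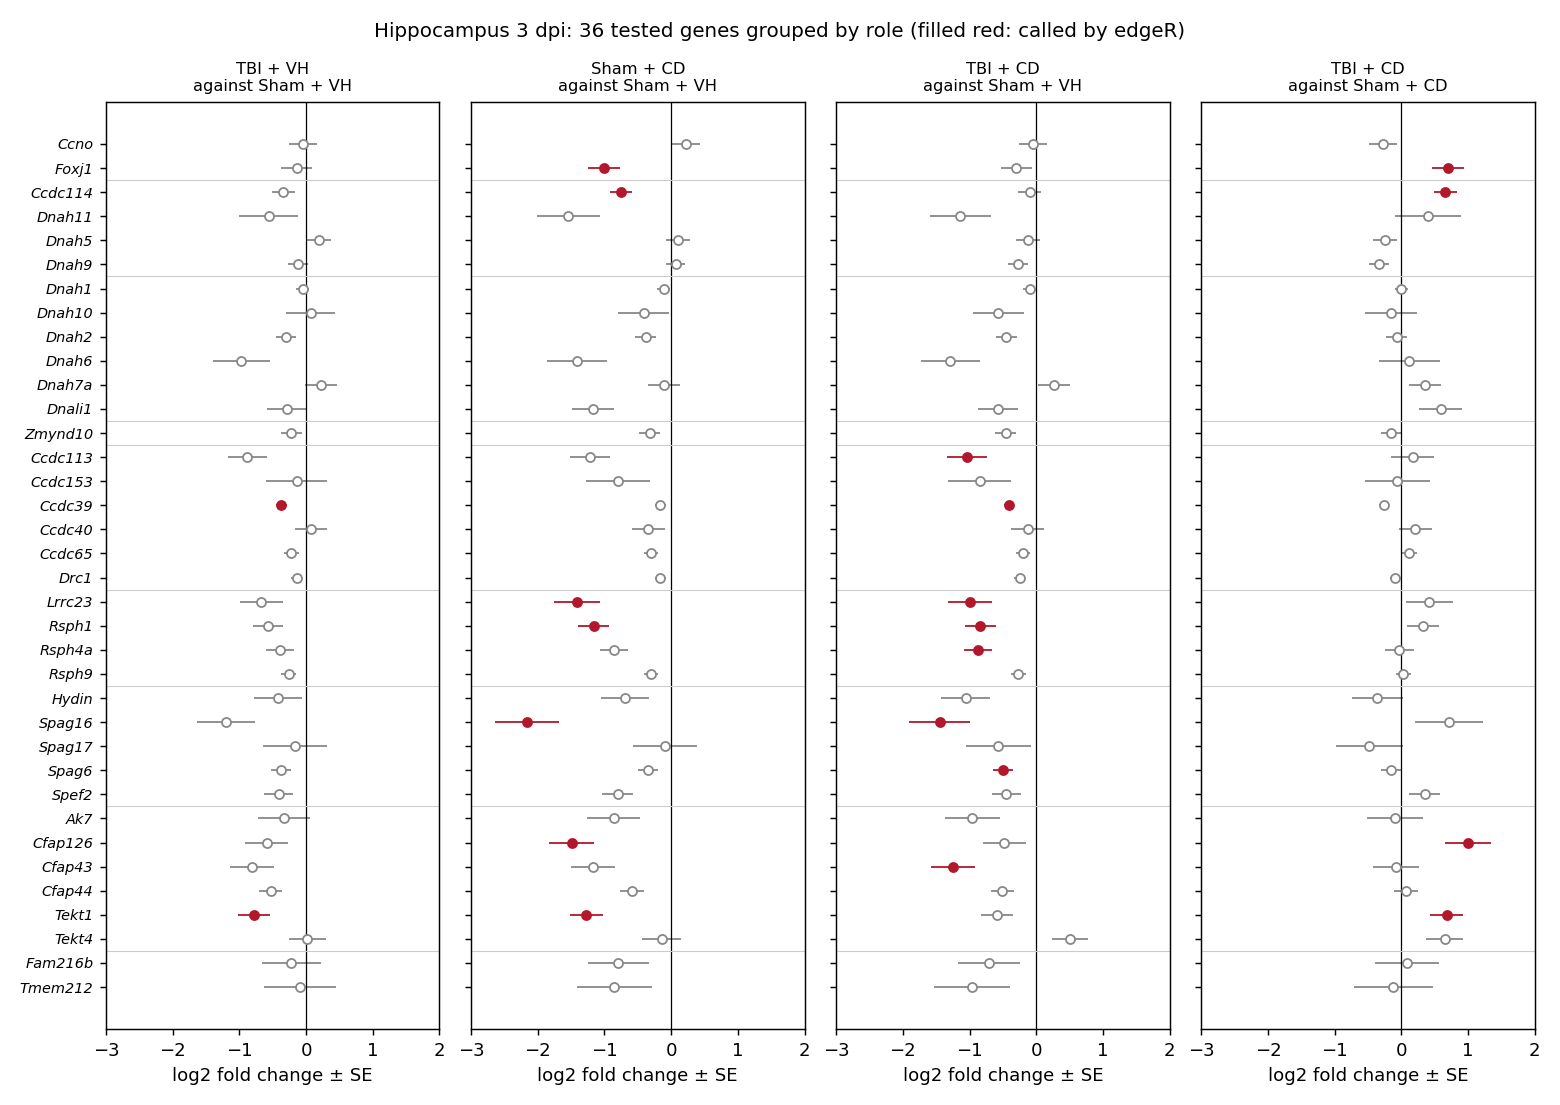
Log2 fold change with its standard error for the 36 tested members in the hippocampus at 3 dpi, grouped by role from the regulators at the top to the ependymal markers at the bottom, in 4 comparisons. Filled red points are called by edgeR, and these are 2, 7 and 8 members below 0 in the comparisons with Sham + VH and 4 members above 0 in TBI + CD against Sham + CD.

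The comparisons that do not use the Sham + VH libraries gave other values. Between TBI + CD and TBI + VH edgeR called 0 members and 0% of all genes, and DESeq2 made 0 calls. An unadjusted edgeR p under 0.05 was reached by 1 member and by 732 of all 16756 tested genes. The median log2 fold change of the members was -0.18, and 29 of 36 were below 0. Without the choroid-rich libraries, of which only TBI + CD replicate 1 belongs to these groups, edgeR again called 0 members and 0% of all genes, with 20 members at an unadjusted p under 0.05, 33 of 36 below 0, a median of -0.39 and a lowest FDR of 0.449. How many of all genes reached an unadjusted p under 0.05 in that fit was not counted. In TBI + CD against Sham + CD 4 members were higher and 0 lower, and 14.4% of all genes were called higher. With only the libraries compared fewer members were called. The groups did not overlap, with TBI + CD higher, for 1 of 36 members and for 17.8% of all genes. With TBI + CD lower they did not overlap for 1 member, Ccdc39, and for 2210 of all 16756 tested genes. These shares of members lay under those of all genes. Ccdc114 was at 10.9, 7.66, 7.5 and 7.58 CPM in TBI + CD, above all 4 Sham + CD libraries (log2 fold change 0.66, SE 0.17, edgeR FDR 0.00737). Foxj1 was at 28.1, 16.4, 10.6 and 13.8 CPM in TBI + CD, which overlapped Sham + CD (log2 fold change 0.70, SE 0.24, edgeR FDR 0.0296). Cfap126 (log2 fold change 1, SE 0.34, edgeR FDR 0.0325) was at 9.19, 2.29, 2.6 and 3.65 CPM, and Tekt1 (0.68, SE 0.25, edgeR FDR 0.0462) was at 7.1, 3.37, 3.2 and 3.4 CPM. In both, replicate 1 stood far above the other 3 libraries. Without the choroid-rich libraries edgeR called Ccdc114 higher (log2 fold change 0.51) and Cfap43 and Dnah9 lower (log2 fold change -0.75 and -0.48), while Cfap126 (0.39), Foxj1 (0.37) and Tekt1 (0.33) were not called. In that fit 13.9% of all genes were called higher and 4.67% lower.

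Whether the effect of candesartan differed between sham and injured mice was tested as an interaction. edgeR called 0 of 36 members and 0% of all genes, with 10 members at an unadjusted p under 0.05 and a lowest FDR of 0.0715. Such a p was reached by 2196 of all 16756 tested genes. DESeq2 called 3 members, all higher, among 325 genes in all, and 1.03% of all genes higher. Without the choroid-rich libraries edgeR called 0 members and 0% of all genes, with 2 at an unadjusted p under 0.05, a median of 0.05 and a lowest FDR of 1. By edgeR the effect of candesartan in sham mice is not shown to differ from that in injured mice.

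At 29 dpi no member was called in the hippocampus. The members summed to 401, 223, 246 and 327 CPM in Sham + VH, to 288, 375, 212 and 284 CPM in TBI + VH, to 226, 192, 297 and 201 CPM in Sham + CD and to 375, 330, 278 and 226 CPM in TBI + CD, and all groups overlapped. In Sham + CD against Sham + VH, 34 of 36 members were below 0, with a median log2 fold change of -0.64 and a lowest edgeR FDR of 0.941. An unadjusted edgeR p under 0.05 was reached by 8 members and by 810 of all 16832 tested genes. In TBI + CD against Sham + CD, 34 of 36 were above 0, with a median of 0.57 and a lowest edgeR FDR of 0.161. There 12 members and 1633 of all 16832 tested genes had an unadjusted edgeR p under 0.05. These comparisons share the Sham + CD libraries. Over all genes 0.529% were called in TBI + VH against Sham + VH, 0.119% in TBI + CD against Sham + VH, 0.356% in TBI + CD against Sham + CD and 0% in the other comparisons. DESeq2 called 0 members in each of them. The choroid plexus genes summed to over 1000 CPM in 7 of these 16 libraries, which came from all 4 groups.

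In the thalamus edgeR and DESeq2 called 0 members in every comparison at both times, with at most 2 at an unadjusted p under 0.05. These 2 were in Sham + CD against Sham + VH at 3 dpi, where 1152 of all 16762 tested genes had such a p by edgeR. The shares of all genes called at 3 dpi were 0.298% in TBI + VH and 0.418% in TBI + CD, each against Sham + VH, and 0.179% in TBI + CD against Sham + CD, and 0% in all others and at 29 dpi. The summed level of the members was 212 to 505 CPM at 3 dpi and 122 to 576 CPM at 29 dpi. At 29 dpi the lowest and the highest library were Sham + CD replicate 2 and TBI + VH replicate 1. Foxj1 was at 12.4 CPM in the former and 50.2 CPM in the latter, and Tmem212 at 0.626 and 10 CPM.

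In the hypothalamus libraries of 1 group spread widely. At 3 dpi the members summed to 207, 245, 627 and 836 CPM in Sham + VH, to 727, 733, 712 and 549 CPM in TBI + VH, to 463, 335, 605 and 226 CPM in Sham + CD and to 281, 734, 773 and 478 CPM in TBI + CD. At 29 dpi they summed to 601, 658, 550 and 563 CPM in Sham + VH, to 731, 743, 577 and 208 CPM in TBI + VH, to 529, 235, 274 and 271 CPM in Sham + CD and to 654, 488, 717 and 223 CPM in TBI + CD. Libraries at 207 to 281 CPM occurred in all 4 groups. All Sham + CD libraries at 29 dpi lay under all Sham + VH libraries, and the lowest libraries of both injured groups lay lower still.

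The spread was far larger than that of most genes. The standard deviation of log2 CPM between libraries within the 4 groups, with 12 residual degrees of freedom, had a median of 0.908 over the 37 tested members at 3 dpi and of 0.128 over all 16946 tested genes. At 29 dpi the medians were 0.825 and 0.128. At both times 30 of the 37 members lay above the 90th percentile of all genes, which was 0.433 at 3 dpi and 0.426 at 29 dpi, and 0 lay under the median. In the hippocampus at 3 dpi the median over the members was 0.374, and 15 of 36 lay above the 90th percentile there, and at 29 dpi they were 0.48 and 18 of 36. In the thalamus the median was 0.5 at 3 dpi, with 23 of 36 above the 90th percentile, and 0.793 at 29 dpi, with 29 of 36 above it.

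**Figure D5:**
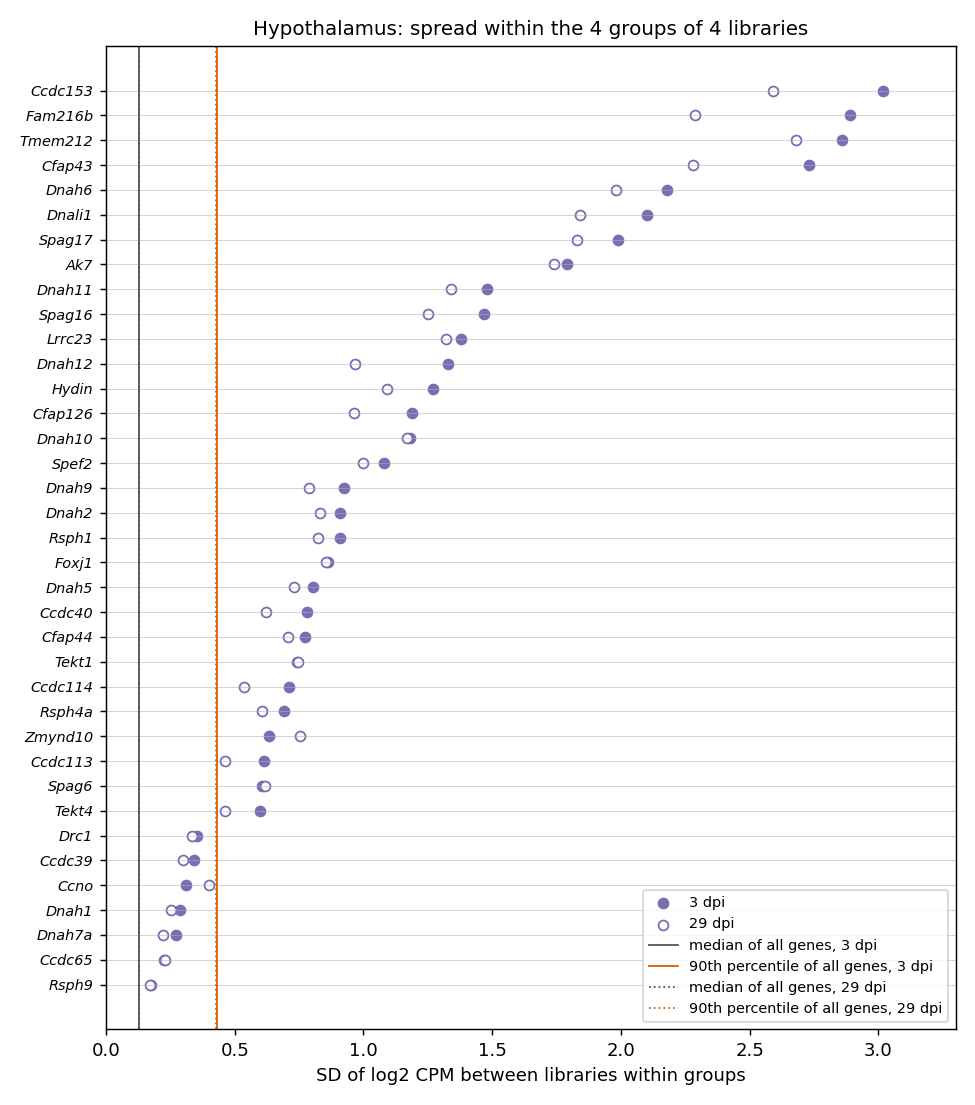
Standard deviation of log2 CPM between libraries within groups for the 37 tested members in the hypothalamus at 3 dpi (filled) and 29 dpi (open), with lines at the median and the 90th percentile of all tested genes. Values run from 0.175 for Rsph9 to 3.02 for Ccdc153 at 3 dpi.

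The members differed widely among themselves in this respect. Ccdc153, a marker of ependymal cells, had the largest spread at 3 dpi, 3.02, and was at 2.59 at 29 dpi, when Tmem212 was the largest at 2.68. At 3 dpi it was at 0.0698, 0.354, 16.6 and 26.6 CPM in Sham + VH, at 24.6, 22.7, 22.9 and 13 CPM in TBI + VH, at 11.5, 4.4, 17.4 and 0.0682 CPM in Sham + CD and at 0.0849, 24.1, 24.2 and 12 CPM in TBI + CD. It was under 2 CPM in 9 of the 32 hypothalamic libraries, 4 at 3 dpi and 5 at 29 dpi. At 29 dpi these were 3 of the Sham + CD libraries, 1 of TBI + VH and 1 of TBI + CD, and 0 of Sham + VH. Tmem212 had 0 counts in 5 of the 32 libraries and reached 11 CPM in another, which is at least 104-fold higher than 3 counts in the library where it was lowest. Fam216b, another ependymal marker, had 0 counts in 3 libraries and reached 10.3 CPM.

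At the other end, Rsph9 was at 15.1 to 26.6 CPM over the same 32 libraries, a ratio of 1.76 between the highest and the lowest. The ratio was 1.81 for Ccdc65, of the nexin-dynein complex, 1.95 for the inner arm dynein Dnah7a, 1.98 for Dnah1, 2.22 for Ccdc39 and 2.31 for Drc1. These 6 genes and Ccno were the 7 members under the 90th percentile at 3 dpi. Reads of Dnah7a can be shared with its close copy Dnah7b. In the library with the lowest summed level, Sham + VH replicate 1 at 3 dpi, Dnah1 was at 56.2 CPM and Rsph9 at 18.9 CPM, while Ccdc153 was at 0.0698 CPM and Spag16 at 0.419 CPM. Foxj1 lay between, at 8.83 to 46.8 CPM with a ratio of 5.3. Promoters of Rsph9, Ccdc65, Ccdc39 and Dnah1 held no RFX half-site in the window, and those of Drc1, Dnah7a and Ccno held 1 each. Those of Tmem212, Fam216b and Dnah6, which spread widely between hypothalamic libraries, held none either. Half-sites were not tested against spread.

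Choroid plexus RNA was low throughout the hypothalamus: its 30 genes summed to 354 to 429 CPM at 3 dpi and 374 to 671 CPM at 29 dpi. Ttr was at 1.38 to 12.1 CPM at 3 dpi and 1.5 to 154 CPM at 29 dpi. The 12 tanycyte genes, which mark cells of the floor of the third ventricle, summed to 85.7 to 325 CPM at 3 dpi. They were at 87.8 and 94.4 CPM in Sham + VH replicates 1 and 2, where the members were low, and at 325 CPM in replicate 4, where the members were highest. The 38 primary cilium genes summed to 1505 to 1732 CPM at 3 dpi and 1490 to 1720 CPM at 29 dpi. In the Sham + VH libraries at 3 dpi they were at 1505, 1592, 1703 and 1732 CPM, in the order of the members. Their order was that of the members in Sham + CD and TBI + CD at both times, but not in TBI + VH at either time nor in Sham + VH at 29 dpi. In TBI + VH at 3 dpi they were at 1656, 1623, 1625 and 1637 CPM. The 12 ependymal genes outside the cilium summed to 857, 863, 1109 and 1438 CPM in the 4 Sham + VH libraries at 3 dpi, in the order of the members. The hypothalamic markers ran the other way in that group, at 1726, 1621, 1261 and 785 CPM. The part of tanycyte, ependymal and hypothalamic content in the spread of the members was not tested.

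Against this spread no member was called in the hypothalamus, by edgeR or DESeq2, in any comparison at either time. At 3 dpi 0% of all genes were called in each of the 6 comparisons, and 0 members had an unadjusted p under 0.05. Of all 16946 tested genes 353 to 936 had such a p by edgeR, depending on the comparison. In TBI + VH against Sham + VH at 3 dpi all 37 members were above 0, with a median log2 fold change of 0.58 and a lowest edgeR FDR of 1. At 29 dpi 0.00583% of all genes were called in TBI + VH against Sham + VH and 0% in the others. In Sham + CD against Sham + VH at 29 dpi, 36 of 37 members were below 0, with a median of -1.07 and a lowest edgeR FDR of 0.356. An unadjusted edgeR p under 0.05 was reached by 22 members and by 2269 of all 17165 tested genes. The 4 Sham + CD libraries lay under all 4 Sham + VH libraries for 16 of 37 members and for 4.7% of all genes. Foxj1 was at 32.9, 42.6, 29.2 and 32.1 CPM in Sham + VH and at 31.8, 10.5, 9.06 and 11.1 CPM in Sham + CD, so replicate 1 of Sham + CD lay within the Sham + VH range. In the same comparison Dnah1 was at 79.3 to 93.7 CPM and 64.2 to 80.7 CPM, and Rsph9 at 17.4 to 19.4 CPM and 16.5 to 20.3 CPM. TBI + CD replicate 4 was as low, with Foxj1 at 8.95 CPM, and the other 3 TBI + CD libraries were at 32.9 to 44 CPM.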

How the data were processed

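Gene-level read counts of 96 libraries were analysed, 4 per group in 24 groups. The authors aligned paired-end reads of a stranded mRNA kit to mm10 with MapSplice, counted them per gene with HTSeq 0.9.1 and deposited raw counts. The annotation, the strand setting and the handling of reads that match several genes are not given in the sources used here. The study's methods say that the 4 RNA samples of highest quality were taken per group, after perfusion with saline. The members, their roles and all gene lists were chosen with earlier results of these data known.

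Symbols were matched after removal of surrounding spaces. Each set of 16 libraries, 1 region at 1 time, had its own fit in edgeR 4.0.16 under R 4.3.3 (TMM scaling, filterByExpr, quasi-likelihood test, 2-sided, Benjamini-Hochberg adjustment over all tested genes). Regions were compared in a fit of the 48 libraries of a time point. Log2 fold changes use edgeR's default prior count, and the SE is the size of the log2 fold change divided by the square root of F. A prior count of 2 was used for log2 CPM in the choroid plexus covariate, the spread within groups and the correlation of same-numbered libraries. CPM uses TMM factors over all 96 libraries. Each library gave 6663629 to 38589791 counts. Over the 144 pairs of libraries within groups, chi-square per degree of freedom was 2.75 to 51.4, so no pair of replicates agreed within sampling noise. Libraries of different groups were not compared in this way.

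Values are given for the 3 members highest per kb, the regulators, the 4 called members of lowest FDR in each comparison and the most abundant member of each role. Other members are named because a count or a spread calls for it, chosen after their values were seen. Alternatives were DESeq2 1.42.0, RLE scaling, no filter, only the libraries compared, a replicate block, a choroid plexus covariate, leaving out single libraries and, added after seeing the data, leaving out choroid-rich libraries.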

Additional observations from a re-analysis of the deposited data

Results flagged for a closer look

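Groups of 4 libraries were searched for a highest or lowest value that stands far from the rest by Dixon's criterion, for the members named by rule in the hippocampus at 3 dpi and for the summed level of the members in all groups. Of 96 groups tested 10 were marked, and chance marks about 1 in 20.

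In Sham + VH hippocampus at 3 dpi, replicate 4 was the highest for Cfap126 at 7.16 CPM, with the other libraries at 5.96 to 5.99 CPM. It was also the highest for Cfap43 at 9.91 CPM, against 8.03 to 8.16 CPM, and for Rsph4a at 13.2 CPM, against 8.78 to 9.51 CPM. In TBI + CD hippocampus at 3 dpi, replicate 1 was the highest for 5 members. It was at 10.9 CPM for Ccdc114 (others 7.5 to 7.66), at 2.67 CPM for Ccno (1.8 to 1.87), at 5.88 CPM for Hydin (1.92 to 2.54), at 4.08 CPM for Spag16 (0.452 to 0.983) and at 7.1 CPM for Tekt1 (3.2 to 3.4). Both libraries were rich in choroid plexus RNA, and its part in these values was not tested.

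In the hypothalamus the summed level of the members was 549 CPM in TBI + VH replicate 4 at 3 dpi, with the others at 712 to 733 CPM. At 29 dpi it was 529 CPM in Sham + CD replicate 1, with the others at 235 to 274 CPM.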

How the results depend on the processing

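Counts of members called depended on the libraries in the fit. In the hippocampus at 3 dpi the counts were 2 for TBI + VH against Sham + VH, 7 for Sham + CD against the same controls, 8 for TBI + CD against them, and 4 for TBI + CD against Sham + CD. With only the libraries compared they were 10, 11, 4 and 1. With the choroid plexus covariate they were 0, 0, 0 and 2, and 1 member was called in TBI + VH against Sham + VH at 29 dpi. With DESeq2 the first and second were 4 and 13, and the interaction gave 3. Without a filter on low counts the first was 4. Without the 4 choroid-rich libraries the first and second were 0. With the replicate block the first was 1 and the last 2, and Sham + CD and TBI + CD against Sham + VH stayed at 7 and 8. The replicate numbers did not pair the libraries: same-numbered libraries correlated over 0.1 in 4 of 24 pairs there (r -0.152 to 0.322).

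Leaving out 1 library gave 0 to 9 for TBI + VH against Sham + VH (9 without TBI + CD replicate 1, 6 without Sham + VH replicate 3, 4 without TBI + CD replicate 3 or TBI + VH replicate 4, 1 without Sham + VH replicates 1, 2 or 4 or TBI + VH replicates 1 or 3, 0 without TBI + VH replicate 2). It gave 0 to 14 for Sham + CD against Sham + VH (14 without TBI + CD replicate 1, 11 without TBI + CD replicate 3, 0 without any Sham + CD library or Sham + VH replicates 1, 2 or 4). It gave 2 to 24 for TBI + CD against Sham + VH (24 without TBI + CD replicate 1, 4, 2 and 3 without its replicates 2, 3 and 4, and 5, 5 and 3 without Sham + VH replicates 1, 2 and 4). It gave 1 to 5 for TBI + CD against Sham + CD (1 without Sham + CD replicate 1 or 4) and 0 to 2 for the interaction (2 without Sham + VH replicate 3, 1 without TBI + CD replicate 2). At 29 dpi TBI + CD against Sham + CD gave 0 to 2 (2 without TBI + CD replicate 4).

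Between regions, only the libraries compared gave 30, 14 and 17 at 29 dpi (hypothalamus against hippocampus, hypothalamus against thalamus, thalamus against hippocampus) and 17 for the last at 3 dpi. The main fits gave 16, 7 and 11 at 29 dpi and 9 for the last at 3 dpi. Shares of all genes with only the libraries compared are not given here. No filter gave 3 for the second at 29 dpi. Without all choroid-rich libraries the counts were 5, 2 and 3 at 3 dpi and 18, 4 and 6 at 29 dpi. Leaving out 1 library gave 9 to 17, 3 to 6 and 9 to 12 at 29 dpi (9 for the first without hippocampus replicate 3) and 8 to 16, 3 to 8 and 8 to 9 at 3 dpi (16 and 8 without hypothalamus replicate 1). Of 21 log2 fold changes of called members, 0 reversed, and 20 lost their call with the choroid plexus covariate, 17 without the choroid-rich libraries and 106 of 336 when single libraries were left out. The causes were not tested.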
